A study of Mus musculus with 6 samples.

Results

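The genes that write, maintain and remove DNA methylation were examined in mouse blastocysts cultured with extracellular vesicles from human Fallopian tubes. They were chosen by name, as the entries of the expression table whose Ensembl identifier maps to Dnmt1, Dnmt3a, Dnmt3b, Dnmt3l, Uhrf1, Tet1, Tet2, Tet3 or Tdg. All 9 were found among the 55774 entries of the table, and 8 of the 9 were high enough to enter the comparison, which covered 11924 genes. None of the 8 passed the test for a difference between the groups, and Tet2, lower in oEV-EMT, came nearest to a difference.

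Wild-type embryos of ICR mice were cultured for 75 hours in CZB medium with oviductal extracellular vesicles from women with endometriosis (oEV-EMT) or from control women (oEV-ctrl), and RNA was sequenced from 3 libraries per group with 10 blastocysts in each. The sample labels say that the embryos entered culture as two-cell embryos, whereas the methods speak of zygotes, and the mothers were superovulated females of 6 to 8 weeks mated with males of 8 to 10 weeks. The vesicles are human material placed on mouse embryos, the labels name uterine fibroids for the control donors while the methods name cervical intraepithelial neoplasia, and the sources used here do not say which donors supplied which library. A blastocyst holds trophectoderm, epiblast and primitive endoderm together, and blastocysts cultured without vesicles were not analysed here.

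DNA methylation in mammals is a methyl group on cytosine, mostly where a guanine follows (CpG). Dnmt3a and Dnmt3b place new marks, Dnmt3l is a cofactor without catalytic activity that stimulates them, and Dnmt1 copies marks onto the new strand after replication, brought there by Uhrf1, which recognises DNA methylated on a single strand. The TET enzymes oxidise methylcytosine, and Tdg, a thymine DNA glycosylase, cuts out oxidised forms so that base excision repair can restore plain cytosine. The genome of the mouse embryo loses most of its methylation between fertilisation and the blastocyst stage and regains it around implantation.

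Values were deposited as 1 number per gene and library and were taken as FPKM. This unit divides a gene's fragments by transcript length and by the size of the library, so that the levels of different genes can be set side by side. Their sums ran from 1293175 to 1551567 per library. An unannotated entry named new_gene48 took 15.3% to 19.0% of the sum in oEV-EMT and 19.7% to 31.5% in oEV-ctrl, without overlap. Median-of-ratios scaling factors ran from 0.997 to 1.16 in oEV-EMT and from 0.905 to 1.01 in oEV-ctrl. The main values below are unscaled, and the part of this entry in them was not tested. Read totals were not given, but the spacing of the lowest values placed the depth between 17.8 fragments per FPKM and kilobase in oEV-ctrl 1 and 36.8 in oEV-EMT 1, a range of 2.07 times. All 7 trophectoderm markers (such as Cdx2 and Krt8) and all 6 epiblast markers (such as Nanog) reached 1 FPKM in every library, as did 4 of 5 primitive endoderm markers. Of 7 oocyte markers 1 did so, with Oosp1 at 0 throughout, and of 6 cumulus and oviduct markers 0 did, with Ptx3 and Foxj1 at 0. The summed epiblast markers lay between 106 and 145 FPKM in oEV-EMT and between 56.9 and 102 in oEV-ctrl, without overlap. Sox2, of that list, had the lower mean in oEV-EMT. The trophectoderm sums overlapped, at 3123 to 4734 against 3075 to 4826, as did the primitive endoderm sums, at 30.3 to 46.9 against 30.6 to 36.1. The low oocyte marker sums, mostly Zp2 and Zp3, were also without overlap, at 3.95 to 7.04 in oEV-EMT and 2.42 to 3.34 in oEV-ctrl. Among single tested genes, 18.1% had every oEV-EMT value above every control. In pooled blastocysts, fewer cells of a type and less RNA per cell cannot be told apart, and the part of the epiblast and oocyte markers in the values below was not tested.

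Levels spanned a wide range. Averaged over the 6 libraries, Dnmt3l stood first at 31.0 FPKM, followed by Dnmt3b at 28.8, Uhrf1 at 12.8, Tet1 at 8.76, Tet2 at 6.53, Dnmt3a at 3.87, Dnmt1 at 2.85, Tdg at 1.85 and Tet3 at 0.840. The de novo enzyme Dnmt3b and its cofactor Dnmt3l thus sat at the 75.9th and 77.0th percentile of the tested genes, and Dnmt1 at the 25.2nd. Most neighbours in this order were not cleanly separated, and only Tdg and Tet3 had ranges that did not meet. Dnmt3l exceeded Dnmt3b in 4 of 6 libraries, and Tet1 exceeded Tet2 in 4 of 6. Uhrf1 was above Tet1, Dnmt3a above Dnmt1, and Dnmt1 above Tdg in all 6.

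**Figure D1:**
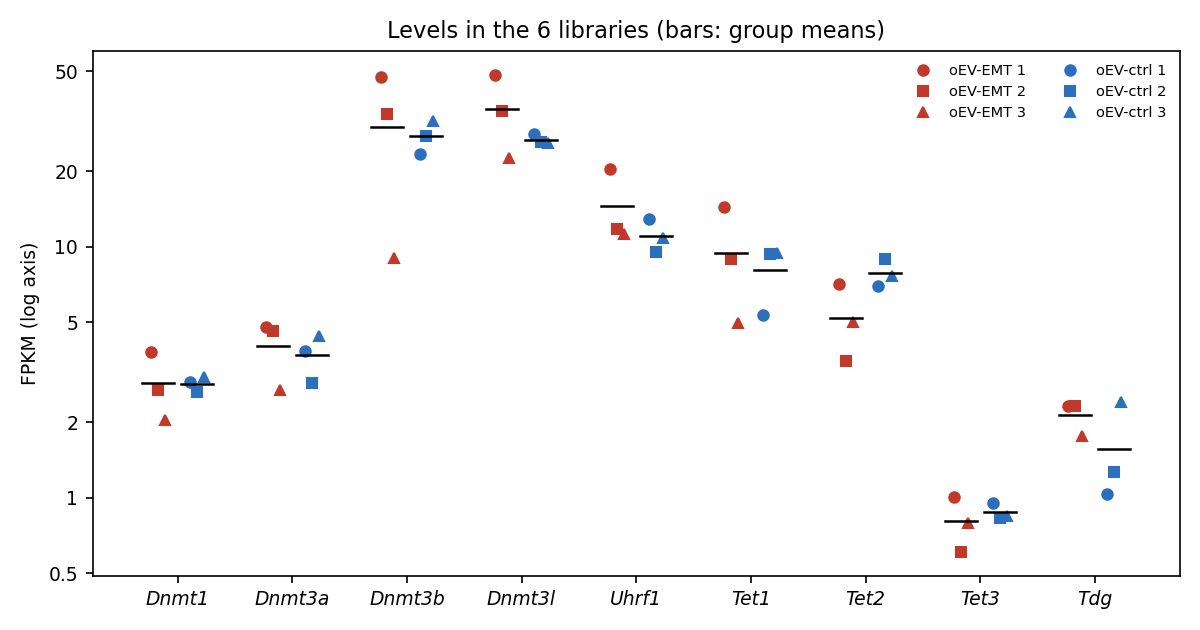
FPKM of each of the 9 genes (log axis) in the 6 libraries, with oEV-EMT in red, oEV-ctrl in blue, 1 symbol per replicate number and bars for group means. Library oEV-EMT 1 (red circles) is the highest of its group in 8 genes, and oEV-EMT 3 (red triangles) is the lowest of its group in 7. The groups overlap in all 9 genes in these unscaled values.

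Dnmt1, the maintenance methyltransferase (ENSMUSG00000004099, GRCm38, chr9:20907209-20959888, minus strand), has starts that differ between oocytes and other cells. The farthest upstream start is known from oocytes, which make a shorter protein from it that the early embryo inherits, and the starts used in somatic cells lie downstream. Dnmt3l (ENSMUSG00000000730, chr10:78041947-78063622, plus strand) likewise has a start known from oocytes, which lies inside the neighbouring gene Aire. A value per gene adds all starts together, so these data do not tell oocyte transcripts from embryonic ones. The 120 bases before the first and the next start of each gene in RefSeq (GRCm38.p6) are shown to make the difference visible, 5′ to 3′ on the strand of the gene, with every CG in capitals. The upstream Dnmt1 window is chr9:20959889-20960008 and the next, whose start lies 6909 bases downstream, is chr9:20952980-20953099. The Dnmt3l windows are chr10:78042167-78042286 and, for the start 7555 bases further on, chr10:78049722-78049841.
Dnmt1, upstream start: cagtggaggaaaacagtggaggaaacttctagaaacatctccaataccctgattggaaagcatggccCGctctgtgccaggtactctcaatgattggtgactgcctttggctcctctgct
Dnmt1, next start: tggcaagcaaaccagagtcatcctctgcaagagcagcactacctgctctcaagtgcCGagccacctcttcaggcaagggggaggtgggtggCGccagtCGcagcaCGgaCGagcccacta
Dnmt3l, start inside Aire: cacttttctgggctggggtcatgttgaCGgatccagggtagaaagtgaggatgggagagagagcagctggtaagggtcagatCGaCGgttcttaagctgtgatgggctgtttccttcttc
Dnmt3l, next start: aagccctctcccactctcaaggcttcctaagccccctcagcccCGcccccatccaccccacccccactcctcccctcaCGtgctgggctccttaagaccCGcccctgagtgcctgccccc

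The upstream Dnmt1 window held 1 CG and the next 5, and both Dnmt3l windows held 3. A further Dnmt1 start, 7265 bases from the first, held 12 in its 120 bases, more than either printed Dnmt1 window, and is not printed. Counted over 250 bases before each start, the 32851 RefSeq windows had a median of 6 CG, and 92.1% held at least 1. The members were spread over this range, from 2 at the upstream Dnmt1 start to 51 at Tet2. The next Dnmt1 start had 7, and the further one had 26, a number that 9.59% of windows reached. Only 0.067% of all windows held as many as Tet2. Single windows of Dnmt3b, Tdg, Tet3 and Tet1 held 21, 19, 17 and 15, and the richest windows of Dnmt3a and Uhrf1 held 40 and 30. These counts describe sequence, and methylation at these starts was not measured in these libraries.

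Among the maintenance genes, Dnmt1 was at 3.82, 2.69 and 2.05 FPKM in oEV-EMT and at 2.88, 2.63 and 3.04 in oEV-ctrl. The oEV-EMT libraries held both the highest and the lowest value, and the control values lay between them. The group means were 2.85 ± 0.895 and 2.85 ± 0.207 (SD, n = 3 each). The log2 fold change of FPKM + 1, oEV-EMT minus oEV-ctrl, was -0.02 with a standard error (SE) of 0.23 and a 95% interval from -0.54 to 0.49 (limma, adjusted p = 0.971). Over all tested genes the median log2 fold change was 0.17, and relative to that median Dnmt1 stood at -0.19. On this scale the changes of genes with low values are understated.

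Uhrf1, its recruiting partner (ENSMUSG00000001228, chr17:56303321-56323486, plus strand), was at 20.5, 11.8 and 11.3 FPKM in oEV-EMT and at 12.8, 9.53 and 10.9 in oEV-ctrl. Library oEV-EMT 1 stood above the rest, while the other oEV-EMT values lay within the control range. The means were 14.5 ± 5.16 and 11.1 ± 1.67, with a log2 fold change of 0.32 (SE 0.26, 95% interval -0.26 to 0.91, limma adjusted p = 0.587). Without oEV-EMT 1 it was 0.06, and with upper quartile scaling 0.07. Uhrf1 thus exceeded Dnmt1 severalfold in every library. The ratio of Uhrf1 to Dnmt1 was 5.36, 4.38 and 5.51 in oEV-EMT and 4.46, 3.63 and 3.57 in oEV-ctrl, so the groups overlapped only through oEV-EMT 2 and oEV-ctrl 1. Of the stretches of 50 bases in Uhrf1 transcripts, 14.7% also occur in the annotated gene Gm5648, which was listed at no more than 0.0567 FPKM.

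Of the de novo enzymes, Dnmt3a (ENSMUSG00000020661, chr12:3806007-3914443, plus strand) was at 4.79, 4.62 and 2.68 FPKM in oEV-EMT and at 3.84, 2.86 and 4.42 in oEV-ctrl. Again oEV-EMT libraries held both ends of the range. The means were 4.03 ± 1.17 and 3.70 ± 0.789, and the log2 fold change was 0.08 (SE 0.26, 95% interval -0.49 to 0.65, limma adjusted p = 0.898).

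Dnmt3b (ENSMUSG00000027478, chr2:153649450-153687730, plus strand) was at 47.2, 33.7 and 8.99 FPKM in oEV-EMT and at 23.5, 27.6 and 31.6 in oEV-ctrl. It varied more between libraries than any other of the 9 genes, by 5.25 times from oEV-EMT 3 to oEV-EMT 1, and the whole control range lay inside that gap. The means were 30.0 ± 19.4 and 27.5 ± 4.05, so the SD within oEV-EMT was larger than the difference between the groups. The log2 fold change was -0.15 (SE 0.55, 95% interval -1.46 to 1.16, limma adjusted p = 0.919). Its sign rested on 1 library, since without oEV-EMT 3 it was 0.53 (adjusted p = 0.336). The interval leaves room for a log2 fold change past 1 in either direction, and a difference of that size was not detectable with these libraries. Dnmt3c, its paralog of the male germline, which holds 9.81% of the 50-base stretches of Dnmt3b transcripts, was at 0.287 to 0.913 FPKM, and Dnmt3bos, on the opposite strand, was at 0.676 to 1.81.

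The cofactor Dnmt3l was at 48.5, 34.8 and 22.5 FPKM in oEV-EMT and at 28.2, 26.0 and 26.0 in oEV-ctrl. The controls were nearly identical, and oEV-EMT 1 and oEV-EMT 2 stood above them while oEV-EMT 3 stood below. The means were 35.2 ± 13.0 and 26.7 ± 1.26, and the log2 fold change was 0.32 (SE 0.27, 95% interval -0.28 to 0.92, limma adjusted p = 0.598). Without oEV-EMT 1 it was 0.06, and without oEV-EMT 3 it was 0.60. Aire, which overlaps it on the opposite strand, was at 0.385 FPKM or less.

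The balance among the methyltransferase genes followed the same libraries. Their summed FPKM (Dnmt1, Dnmt3a, Dnmt3b and Dnmt3l) were 104, 75.8 and 36.2 in oEV-EMT and 58.4, 59.1 and 65.0 in oEV-ctrl. Dnmt3b made up 45.3%, 44.5% and 24.8% of the sum in oEV-EMT and 40.2%, 46.7% and 48.6% in oEV-ctrl. A share within a library does not depend on scaling between libraries, and on this measure too oEV-EMT 3 stood apart, with Dnmt3l at 62.1% of its sum against 40.0% to 48.3% in the other libraries. In oEV-EMT 3 the ratio of Dnmt3b to Dnmt3l was 0.400, against 0.832 to 1.21 elsewhere. Dnmt1 and Dnmt3a together were a minor component, each between 3.55% and 7.41%.

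**Figure D2:**
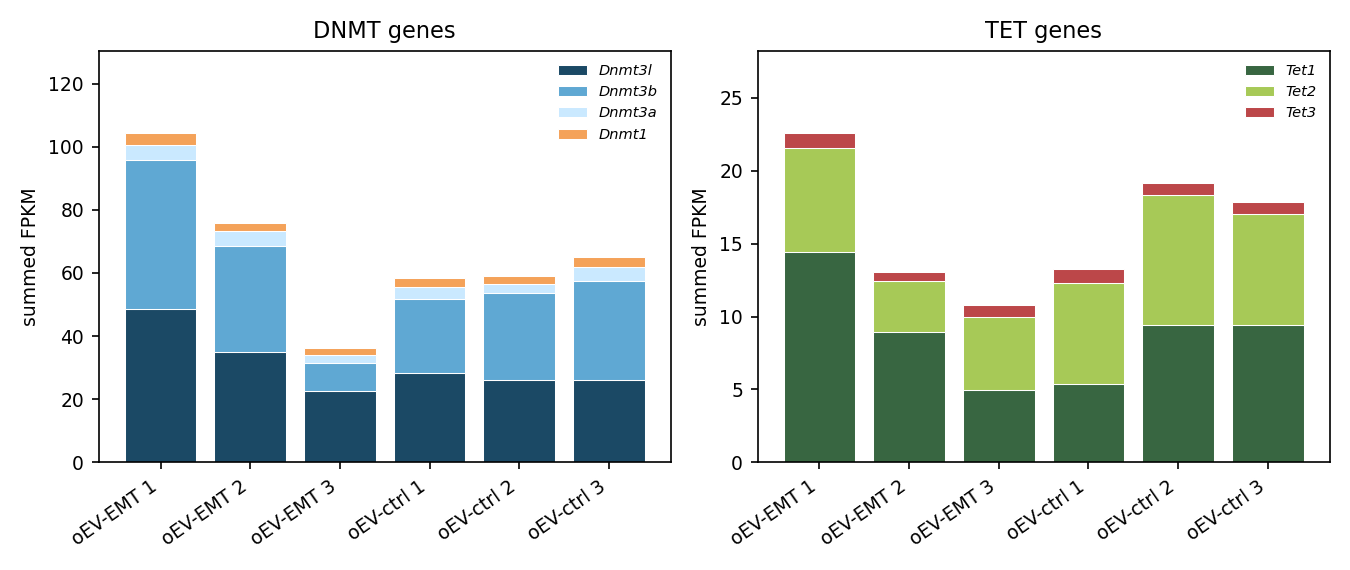
Summed FPKM of the methyltransferase genes (left) and of the TET genes (right) in each library, with 1 colour per gene and both axes starting at 0. The methyltransferase sum runs from 36.2 in oEV-EMT 3 to 104 in oEV-EMT 1 with the controls between 58.4 and 65.0, and Tet2 (light green) makes up less of the TET sum in oEV-EMT 1 and oEV-EMT 2 than in the other libraries.

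Among the erasers, Tet1 (ENSMUSG00000047146, chr10:62804570-62908996, minus strand) was at 14.4, 8.97 and 4.96 FPKM in oEV-EMT and at 5.34, 9.39 and 9.43 in oEV-ctrl. Highest and lowest value were both in oEV-EMT. The means were 9.46 ± 4.76 and 8.05 ± 2.35, and the log2 fold change was 0.14 (SE 0.35, 95% interval -0.65 to 0.93, limma adjusted p = 0.872).

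Tet2 (ENSMUSG00000040943, chr3:133463679-133545139, minus strand) was at 7.12, 3.50 and 5.01 FPKM in oEV-EMT and at 6.97, 8.96 and 7.61 in oEV-ctrl. Libraries oEV-EMT 2 and oEV-EMT 3 lay below every control, and oEV-EMT 1 lay just above the lowest control. In FPKM without scaling between libraries the groups thus overlapped by 1 library. Median-of-ratios factors, which divide the values, were 1.16 in oEV-EMT 1 and 0.905 in oEV-ctrl 1. Dividing by them parts the groups, so the overlap depends on the scaling. The means were 5.21 ± 1.82 and 7.85 ± 1.01. The log2 fold change was -0.55 (SE 0.26, 95% interval -1.12 to 0.03), which did not pass the threshold (limma, adjusted p = 0.347, and exact two-sided permutation test, p = 0.2). Relative to the median of all genes it was -0.72, with an interval from -1.29 to -0.14, and 3.23% of the tested genes had a relative change as low or lower. No other member had a relative interval, which is not adjusted for the number of genes, wholly on 1 side of 0. The sign was negative under every alternative tried, from -0.82 to -0.33, with adjusted p between 0.0731 and 0.682.

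Tet3, the TET enzyme known for its maternal supply in the egg (ENSMUSG00000034832, chr6:83362373-83459084, minus strand), was the lowest of the 9, at 1.01, 0.609 and 0.792 FPKM in oEV-EMT and 0.955, 0.828 and 0.847 in oEV-ctrl. It reached 1 FPKM in 1 library only, and therefore did not enter the comparison. At the derived depth its lowest value stands for at most 142 fragments, a counting error of no less than 8.38%. The groups overlapped (exact two-sided permutation test, p = 0.6).

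Within the TET family the shares shifted between Tet1 and Tet2. Tet2 made up 31.5%, 26.7% and 46.5% of the TET sum in oEV-EMT and 52.5%, 46.7% and 42.5% in oEV-ctrl, a mean of 34.9% ± 10.3 against 47.3% ± 5.02. Tet1 took the remainder, apart from 4.32% to 7.36% for Tet3. The ratio of Tet1 to Tet2 was 2.03 and 2.57 in oEV-EMT 1 and oEV-EMT 2, and between 0.766 and 1.24 in the other 4 libraries. In this measure oEV-EMT 3 lay with the controls, and the groups overlapped. The ratio of the methyltransferase sum to the TET sum was 4.62, 5.80 and 3.36 in oEV-EMT and 4.40, 3.08 and 3.63 in oEV-ctrl, again with overlap. These ratios were described without a test.

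The glycosylase Tdg (ENSMUSG00000034674, chr10:82629828-82650799, plus strand) was at 2.31, 2.31 and 1.76 FPKM in oEV-EMT and at 1.04, 1.26 and 2.40 in oEV-ctrl. The first control libraries were low and oEV-ctrl 3 was the highest of all 6. The means were 2.13 ± 0.317 and 1.57 ± 0.731, and the log2 fold change was 0.32 (SE 0.24, 95% interval -0.22 to 0.85, limma adjusted p = 0.558). It was 0.17 without oEV-ctrl 1, 0.54 without oEV-ctrl 3 and 0.49 with a pseudocount of 0.1. Its lowest value stands for at most 64.4 fragments, a counting error of no less than 12.5%. Tdg also shares sequence with processed pseudogenes, so reads may have been divided among them. Of its 50-base stretches 29.4% occur in Tdg-ps, 15.8% in Gm9855 and 15.0% in Gm5597.

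The pseudogene Gm9855 (chr10:42054113-42055306), singled out here after its values were seen, was listed well above Tdg itself, at 11.2, 11.1 and 8.03 FPKM in oEV-EMT and 4.87, 5.24 and 7.23 in oEV-ctrl. All oEV-EMT values lay above all controls, as they did in 18.1% of the tested genes, and the log2 fold change of 0.71 (SE 0.24) did not pass the threshold (limma adjusted p = 0.217). Summed over Tdg and the 3 pseudogenes, the values were 15.3, 15.4 and 11.1 in oEV-EMT and 7.23, 7.75 and 11.2 in oEV-ctrl. Tdg held 16.4% of that sum on average and Gm9855 69.5%. FPKM are per length, and the longest Tdg transcript, of 3502 bases, is longer than Gm9855, so these are not shares of reads. The summed groups overlapped only where oEV-EMT 3 met oEV-ctrl 3. The difference of the sums was 0.63 on the scale of log2(FPKM + 1), against 0.32 for Tdg alone. Adding 1 shrinks the change of Tdg more than that of the higher sum, and with a pseudocount of 0.1 Tdg was at 0.49. How the authors' counting divided shared reads is not given in the sources used here.

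**Figure D3:**
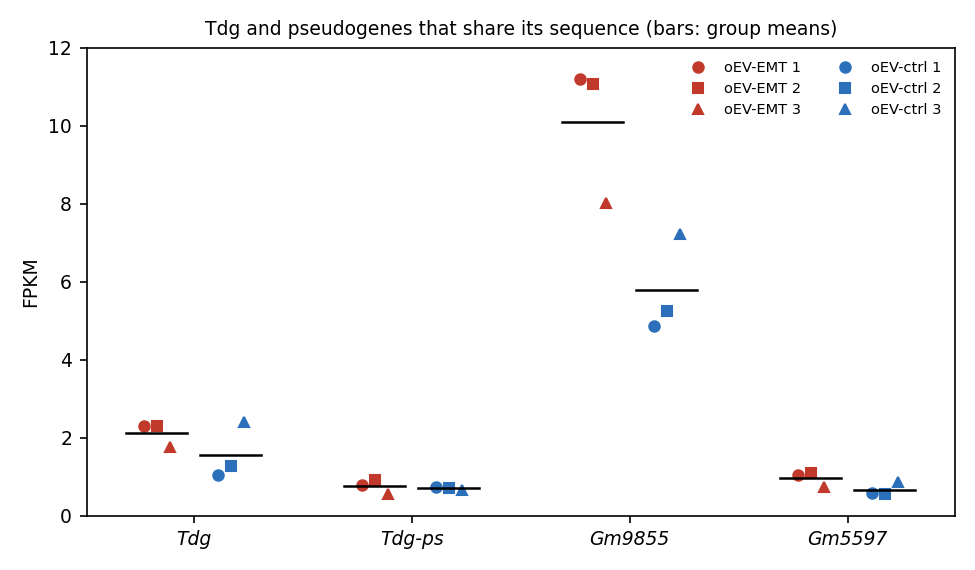
FPKM of Tdg and of the 3 processed pseudogenes that share its sequence, by library, with oEV-EMT in red, oEV-ctrl in blue and bars for group means. Gm9855 lies above the other 3 genes in every library, and its oEV-EMT values (8.03 to 11.2) lie above its oEV-ctrl values (4.87 to 7.23), whereas the groups overlap in Tdg.

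The study's thresholds asked for an adjusted p no higher than 0.05 and a log2 fold change of 1 or more in either direction. By these limma called 0 of the 8 tested members, and it called 0% of all 11924 genes. The paper applied the same thresholds in a different differential expression procedure and reported both upregulated and downregulated genes. The 0% therefore describes limma on these FPKM values and not the paper's own calls, which were not recomputed here. At an unadjusted p of at most 0.05, 0 of 8 members passed, compared with 15.4% of all tested genes (12.8% in the direction of oEV-EMT and 2.55% in that of oEV-ctrl). In FPKM without scaling between libraries, the groups were without overlap in 0 of the 9 members and in 22.4% of the tested genes. The fold change was above 0 in 5 of 8 members and in 70.1% of all tested genes. Relative to the median of all genes, Dnmt3l, Uhrf1 and Tdg lay above and the other 5 below, with a median of -0.06. Exact two-sided permutation tests of the 9 genes, also on unscaled values, gave p from 0.2 for Tet2 to 1. With 3 libraries against 3 they cannot give less than 0.1. The methods say that experiments were repeated, but the sources do not tie each library to a culture of its own, so these p-values measure the spread between the pools, which may be technical in part.

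**Figure D4:**
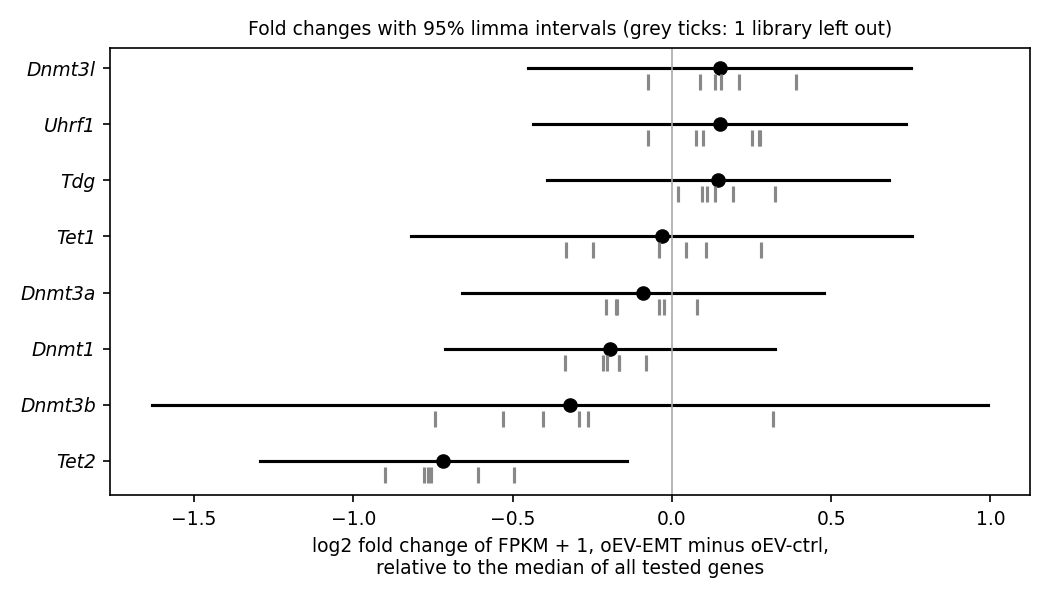
Log2 fold change of FPKM + 1 (oEV-EMT minus oEV-ctrl) for the 8 tested genes, relative to the median of all tested genes, with 95% limma intervals as lines and grey ticks for the values when 1 library is left out. Only the interval of Tet2, at -0.72, lies wholly on 1 side of 0, and the widest interval is that of Dnmt3b.

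The extreme values of the members fell largely in the same libraries. Library oEV-EMT 1 was the highest of its group in 8 of 9 members, and oEV-EMT 3 was the lowest of its group in 7. Over all tested genes, oEV-EMT 1 was the highest of its group in 48.3% and oEV-EMT 3 the lowest in 45.7%. Tet2 and Tet3 departed from this, with their lowest value in oEV-EMT 2. After the median of each library was taken off, Tet2 and Tet3 had the closest pattern of any pair of members (Pearson's r = 0.861, Spearman's rho = 0.886, over 6 libraries that share depth and pool with both genes), followed by Dnmt3b and Tet1 (r = 0.838, rho = 0.771). Among all genes, those with the pattern most like Tet2 by Pearson's r were Ltn1 (r = 0.996), Hdac5 (0.993) and Rn7sk (0.991), over the same 6 libraries. Of the 11923 other genes, 54 had an r over 0.95 with Tet2 over these 6 points.

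Partners of these enzymes were read from lists of 63 further genes of DNA methylation, of which 55 were tested. Of the 55, 0 passed the thresholds (limma, adjusted p from 0.232 to 0.996). Before adjustment, 3 of them (Zfp57, Ung and Ahcyl2), all higher in oEV-EMT, had a p no higher than 0.05. Of all tested genes 12.8% met that p in the same direction. In FPKM without scaling between libraries, the groups were without overlap in 5 of the 55 that were higher and 2 that were lower. Of all tested genes 18.1% and 4.34% were. The 5 include Cdca7l, which entered the comparison only through oEV-EMT and so could not overlap. The shares over all tested genes include such genes too. Their median relative log2 fold change was -0.07. The largest value belonged to Zfp57, and the list medians lay between -0.18 and 0.11.

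All 9 genes listed as maintenance partners were tested, with a relative median of 0.02. That median was the value of Trdmt1, which is named as a tRNA methyltransferase. Hells, a chromatin remodeller that gives Dnmt1 access to packed DNA, averaged 16.1 ± 1.19 FPKM in oEV-EMT and 13.0 ± 0.759 in oEV-ctrl. Its groups did not overlap in these unscaled values but do after median-of-ratios scaling. The log2 fold change of Hells was 0.29 (limma adjusted p = 0.513). Cdca7, the partner of Hells, at 7.80 ± 2.70 against 5.44 ± 1.40, overlapped between the groups (log2 fold change 0.43, adjusted p = 0.489). The related Cdca7l averaged 1.51 ± 0.392 and 0.895 ± 0.0197 (log2 fold change 0.39, adjusted p = 0.374). It reached 1 FPKM only in the oEV-EMT libraries and entered the comparison through them, so its lack of overlap followed from the filter.

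For readers of methylated CpG, 5 genes were tested, and the fold changes of all 5 were under the all-gene median, with a relative median of -0.13. Mbd2, a methyl-CpG binding repressor, was at 3.74, 3.98 and 2.87 FPKM in oEV-EMT and at 4.66, 5.84 and 4.76 in oEV-ctrl. Every oEV-EMT value was below every control, as in 4.34% of the tested genes, and the log2 fold change was -0.43 (SE 0.22, limma adjusted p = 0.376). Zbtb33, which encodes the reader Kaiso, was at 1.18 ± 0.353 against 1.86 ± 0.344, also without overlap (log2 fold change -0.40, adjusted p = 0.394). Mbd3, a subunit of the NuRD repressor complex, was at 12.3 ± 2.30 and 10.8 ± 1.87 and overlapped (0.17, adjusted p = 0.757).

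Among 10 factors that guard or direct methylation in the embryo, all tested, the relative median was -0.18. Zfp57, a zinc finger protein that keeps imprinted regions methylated, was at 19.2, 16.3 and 3.36 FPKM in oEV-EMT and at 2.04, 2.75 and 2.81 in oEV-ctrl. All oEV-EMT values were higher than all controls, with oEV-EMT 3 close to them and the other 2 several times higher. The log2 fold change was 1.71 (SE 0.55, limma adjusted p = 0.232), so it passed the fold change threshold but not the adjusted p. It was the single gene of all 11924 that passed both thresholds when oEV-EMT 3 was left out. Ehmt2, a histone H3K9 methyltransferase, had a log2 fold change of 0.40 (adjusted p = 0.451), and Ctcf, an insulator protein that binds unmethylated imprinting control regions, of -0.39 (adjusted p = 0.447), both with overlap.

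Of 17 genes for TET partners and base excision repair, 14 were tested, with a relative median of -0.01 and 0 without overlap between the groups. Ung, a uracil glycosylase, averaged 12.8 ± 6.53 FPKM in oEV-EMT and 6.58 ± 2.72 in oEV-ctrl (log2 fold change 0.84, SE 0.36, limma adjusted p = 0.312). Ogt, which adds N-acetylglucosamine to proteins and binds TET enzymes, was at 14.2 ± 4.96 against 8.78 ± 3.89 (0.66, adjusted p = 0.360), and Hmces, a sensor of abasic sites, at 21.1 ± 6.22 against 13.7 ± 3.59 (0.58, adjusted p = 0.361). Cxxc4 was at 0 in every library, and Neil2 and Neil3 were too low for the test.

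The 5 genes of the methyl donor cycle had a relative median of 0.11. Ahcyl2, a homolog of the enzyme that clears S-adenosylhomocysteine, averaged 3.76 ± 0.638 against 2.16 ± 0.642 FPKM without overlap (log2 fold change 0.60, limma adjusted p = 0.272). Mat2b, the regulatory subunit of methionine adenosyltransferase, averaged 44.8 ± 0.808 against 36.8 ± 3.19 (0.28, adjusted p = 0.508). Its groups did not overlap in these unscaled values but do after median-of-ratios scaling. Ahcyl1 was at 7.39, 7.57 and 1.21 in oEV-EMT and at 9.34, 9.31 and 6.28 in oEV-ctrl, with oEV-EMT 3 far below the rest (-0.76, adjusted p = 0.512).

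A further list held germline genes whose promoters are known to be silenced by DNA methylation in somatic cells. Of 14 such genes 12 were tested, 0 were without overlap, and their relative median was -0.16. Tex101 averaged 10.1 ± 2.37 against 6.86 ± 3.20 FPKM (log2 fold change 0.56, limma adjusted p = 0.403), Tex19.1 45.7 ± 26.4 against 29.6 ± 8.78 (0.50, adjusted p = 0.577), and Sycp1, of the synaptonemal complex, 8.43 ± 2.20 against 11.3 ± 4.79 (-0.32, adjusted p = 0.673). The adjusted p-values of the list ran from 0.403 to 0.996.

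**Figure D5:**
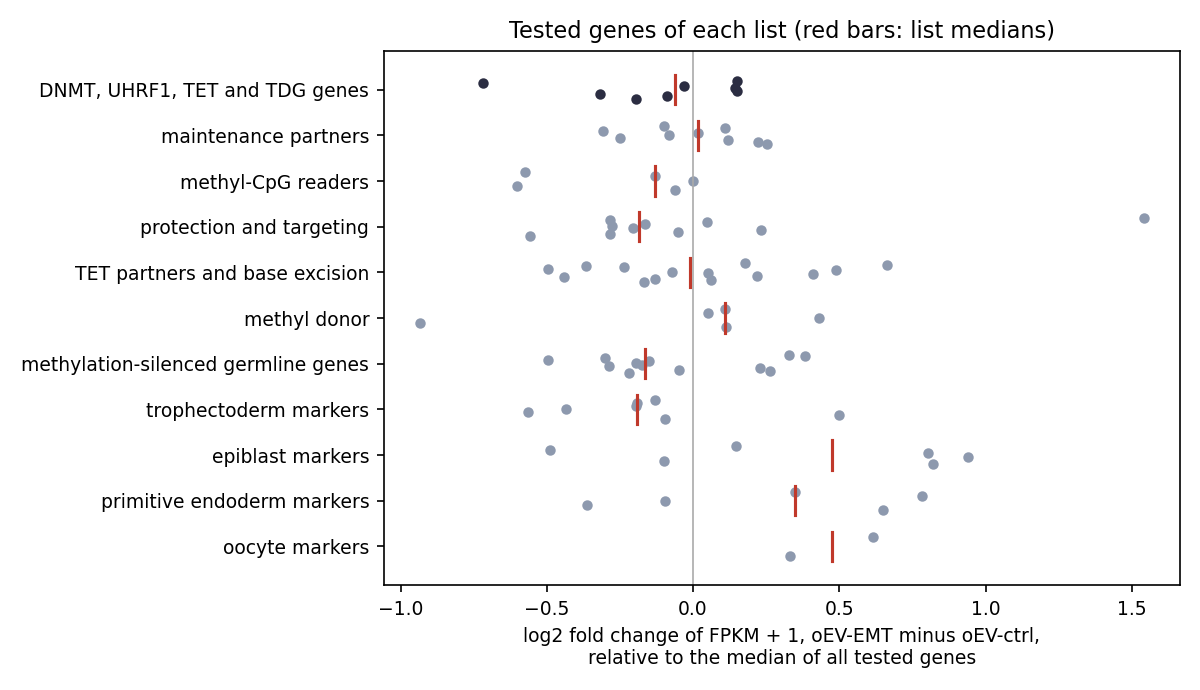
Relative log2 fold change (oEV-EMT minus oEV-ctrl, median of all tested genes at 0) of each tested gene in the methylation lists and in the cell type marker lists, with 1 point per gene and red bars for list medians. Most methylation genes lie within 0.5 of 0, Zfp57 is the point at 1.54, and the medians of the epiblast markers, at 0.48, and of the oocyte markers (2 genes), at 0.47, lie above those of the methylation lists. Of the oocyte markers, Zp3 passed the filter only through oEV-EMT.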

How the data were processed

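RNA of 6 pools of blastocysts was sequenced from oligo(dT)-selected libraries. The submitters' processing notes name StringTie and mm10, and the aligner is not given in the sources used here. The authors deposited 1 value per gene and library. Their methods name TPM, but the sums exceeded 1000000 and differed, so the deposited values were treated as FPKM and not as counts.

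Groups came from the sample labels. Genes that reached 1 FPKM in 3 or more libraries entered the comparison. It used limma 3.58.1 (R 4.3.3) on log2(FPKM + 1), with a trended, robust variance, group as the only term and Benjamini-Hochberg adjustment. The study's thresholds were kept (adjusted p up to 0.05, log2 fold change of 1 or more in either direction). The paper's own differential expression procedure was not rerun. Single genes were also compared by exact two-sided permutation tests (scipy 1.17.1 in Python 3.11.15). These tests and the overlap between groups were read on FPKM without scaling between libraries. The procedure was tested on simulated data. The members and lists were chosen with earlier results of these data known. All members were described, with up to 3 genes of smallest unadjusted p from each list and the 3 genes likest to the member of smallest p. Gm9855, Gm5597, Tdg-ps and other genes that share sequence or position with a member were added after values were seen.

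Depth was derived from the commonest step among values below 0.03 FPKM in genes with a single transcript of over 1500 bases, which assumes that whole fragments were counted. Fragment numbers use the longest transcript and are upper limits, and they cover counting error only. Symbols, coordinates and stretches of 50 bases shared between transcripts came from GENCODE on GRCm38, the assembly that mm10 names. Windows before starts came from RefSeq (GRCm38.p6), where all 9 members matched with 16 windows. CG was counted, which reads the same on both strands. Alternatives covered scaling between libraries, the filter, the pseudocount, omission of each library and a replicate block. Whether counting used strand is not stated, so a gene and its antisense partner may share reads. KEGG and GO annotations, real-time RT-PCR and imaging were not analysed here. Figures were drawn with matplotlib 3.10.9.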

Additional observations from a re-analysis of the deposited data

How the results depend on the processing

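Under every alternative, 0 members passed both thresholds, with adjusted p from 0.0731 (Tet2 with quality weights) to 0.997 (limma). Of 112 recomputed member fold changes, 98 kept their sign. The 14 reversals were all in Dnmt1, Dnmt3a, Dnmt3b and Tet1. Rescaling each library to a sum of 1000000 gave Dnmt1 0.045. Median-of-ratios scaling gave Dnmt3a -0.077 and Tet1 -0.039, and upper quartile scaling gave them -0.13 and -0.10. Weighting libraries by quality, chosen after seeing the data, gave Tet1 -0.0020. Leaving out 1 library moved Dnmt1 from -0.20 to 0.13, Dnmt3a from -0.055 to 0.29, Dnmt3b from -0.61 to 0.53 and Tet1 from -0.19 to 0.49. The highest of these values all came without oEV-EMT 3. With 1 library left out Tet2 lay between -0.76 and -0.33, Dnmt3l between 0.06 and 0.60, Uhrf1 between 0.06 and 0.47 and Tdg between 0.17 and 0.54. The difference in the Tet2 share lay between -18.1 and -8.22 percentage points, and that in the Dnmt3b share between -10.5 and -0.27, the smallest without oEV-EMT 3.

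Counts over all genes moved from 0 to 104 with quality weights, and to between 0 and 17 with 1 library left out (17 without oEV-ctrl 3, 4 without oEV-EMT 1, 1 without oEV-EMT 3). For the partner lists the count was 0 to 1 with 1 library left out (Zfp57, without oEV-EMT 3). A fit with the replicate number as a block gave 21 genes and 0 members. Deviations of libraries with the same number correlated at 0.119, -0.0442 and 0.0388, so the numbers were not taken as pairs. With 1 library left out, relative list medians lay between -0.08 and 0.10 for maintenance partners, -0.22 and -0.04 for readers, -0.21 and -0.08 for protection and targeting, -0.14 and 0.14 for TET partners, 0.07 and 0.13 for the methyl donor cycle, and -0.26 and -0.04 for germline genes. That of the oocyte markers was 1.00 with a pseudocount of 0.1. The cause of these changes was not tested. Standard errors of the members ran from 0.23 to 0.55 on the log2 scale, which sets the size of difference that 3 libraries per group could show.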

Other observations

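Markers of the cell lineages were read in the same pools. Of 6 epiblast markers, 3 had every oEV-EMT value above every control, as did 18.1% of all tested genes. Pou5f1, a pluripotency factor, was at 23.8, 23.9 and 15.4 FPKM in oEV-EMT and at 10.4, 6.94 and 13.7 in oEV-ctrl (log2 fold change 0.97, limma adjusted p = 0.175). Nanog was at 53.2, 46.2 and 56.1 against 13.0, 25.8 and 37.5 (1.11, adjusted p = 0.187), and the growth factor gene Fgf4 averaged 8.58 ± 4.67 against 3.48 ± 0.472 (0.99, adjusted p = 0.208). Sox2, in the same list, had a fold change of the opposite sign, at 1.87 ± 1.19 against 2.43 ± 0.644 (-0.32, adjusted p = 0.632), and its groups overlapped.

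In primitive endoderm, 2 of 5 markers had every oEV-EMT value above every control, as did 18.1% of all tested genes. These were Gata4, at 8.79 ± 2.19 against 4.48 ± 0.517 FPKM (log2 fold change 0.82, limma adjusted p = 0.174), and Sox7, at 4.36 ± 1.36 against 2.70 ± 0.633 (0.52, adjusted p = 0.355). Sox17 averaged 3.13 ± 1.92 against 1.03 ± 0.626 (0.95, adjusted p = 0.302) and Gata6 18.8 ± 2.93 against 21.6 ± 2.96 (-0.19, adjusted p = 0.703), both with overlap. In trophectoderm, Elf5 averaged 23.6 ± 4.99 against 14.6 ± 3.96 (0.67, adjusted p = 0.270), Eomes 23.1 ± 7.23 against 30.0 ± 4.76 (-0.39, adjusted p = 0.486) and Gata3 67.3 ± 34.3 against 75.3 ± 9.90 (-0.26, adjusted p = 0.711). Of the zona pellucida genes of the oocyte, Zp3 averaged 1.42 ± 0.301 against 0.422 ± 0.341 (0.79, adjusted p = 0.174), and Zp2 3.54 ± 1.46 against 2.15 ± 0.684 (0.50, adjusted p = 0.407). Zp3 reached 1 FPKM only in the oEV-EMT libraries and entered the comparison through them, so its groups could not overlap. None of these genes passed the thresholds, and Sox2 and Gata6 were added after their values were seen.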
